A study of Mus musculus with 9 samples.

Results

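The mouse genes that still carried a placeholder name, either Gm followed by a number or a clone identifier ending in Rik, were examined where they were expressed in primary microglia. Of 24411 gene rows, 3159 had such a name and 1759 of those had at least 1 count. The 116 genes described here, 16 Gm and 100 Rik, were chosen by their level in these same libraries: a mean of at least 20 CPM, the read count scaled to the library's total of gene counts, in at least 1 of the 3 treatment groups. Counts of genes called among them are therefore a description. Just inside the threshold lay A530032D15Rik, 3110035E14Rik, 2210016L21Rik and 2700029M09Rik, with highest group means of 20.3, 20.3, 20.5 and 20.6 CPM. Just outside it lay 6330403K07Rik, 0610037L13Rik, 5730409E04Rik and A830080D01Rik, with 19.4, 19, 19 and 18.6 CPM.

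Microglia, the resident macrophages of the brain, came from whole brains of ICR pups aged 3 days. They were shaken off mixed glial cultures, plated for 24 h and stimulated for 4 h. The 3 groups of 3 libraries received 1 µM R848 with 100 U/ml IFN-α, R848 alone at 1 µM, or IFN-α alone at 100 U/ml. All groups shared the outbred ICR stock, which differs from the C57BL/6J-based genome build, and the effect of that on the counts was not tested. A control group that the design text names is not analysed here, so every difference below is between stimulated cells.

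A Gm or Rik symbol says only that a transcript was predicted or cloned before its product was known, and many such genes have since been renamed for a function. R848 (resiquimod) activates TLR7, which senses single-stranded RNA in endosomes and signals through MyD88 to the transcription factors NF-κB and AP-1. IFN-α binds the type I interferon receptor, and many genes that it induces carry an interferon-stimulated response element (ISRE) in their promoters. In the mouse, type I and type II interferons induce a large family of immunity-related GTPases, which attack the vacuoles and membranes of intracellular microbes.

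Of the 116 genes, 67 were found in the RefSeq gene table by their own symbol, 48 by a synonym and 1, Gm17066, only in GENCODE. RefSeq gave 101 as protein-coding, 13 as long noncoding RNAs and 1, Gm8615, as a transcribed pseudogene. They lay on every autosome and on X, and 6 of them formed the GTPase group of the results, in 3 places. Gm5431 (synonym Irgb9b8, chr11:48887422-48902152 on the minus strand) and Gm12185 (Irgb2b1, chr11:48904656-48927182 on the minus strand) were adjacent on chromosome 11, between Irgm1 and further genes of the family that include Tgtp1. Gm12250 (Irgb10) lay apart at chr11:58183843-58190198 on the plus strand. Gm4951, Gm4841 and F830016B08Rik (Ifgga2, Ifgga3 and Ifgga4) followed each other on another chromosome, beside Iigp1. All coordinates are from RefSeq on GRCm38.p6, the assembly that mm10 names.

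The promoter windows of 5 genes are shown because their transcripts differed strongly between groups or because they stand for different patterns. Each window runs from 250 bases before to 50 after the annotated start, 5′ to 3′ on the gene's strand, from RefSeq on GRCm38.p6. Capitals mark the ISRE core, GAAA and GAAA with 2 bases between them, on either strand in the Gm12250, Gm12185 and F630028O10Rik windows and a κB motif in the C920009B18Rik window.
Gm12250 (chr11:58183593-58183892, plus strand): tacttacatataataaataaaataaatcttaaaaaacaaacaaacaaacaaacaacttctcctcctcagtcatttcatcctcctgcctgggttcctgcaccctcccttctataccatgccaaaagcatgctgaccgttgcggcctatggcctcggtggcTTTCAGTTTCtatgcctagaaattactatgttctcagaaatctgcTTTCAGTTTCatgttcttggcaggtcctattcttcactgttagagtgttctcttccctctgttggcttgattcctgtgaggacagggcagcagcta
Gm12185 (chr11:48927133-48927432, minus strand): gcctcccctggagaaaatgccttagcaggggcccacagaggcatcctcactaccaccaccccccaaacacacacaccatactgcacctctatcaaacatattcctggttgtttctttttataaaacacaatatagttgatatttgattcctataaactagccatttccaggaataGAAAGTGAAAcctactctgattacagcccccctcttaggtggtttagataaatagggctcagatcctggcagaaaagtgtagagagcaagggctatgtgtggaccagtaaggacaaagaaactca
Gm5431 (chr11:48902103-48902402, minus strand): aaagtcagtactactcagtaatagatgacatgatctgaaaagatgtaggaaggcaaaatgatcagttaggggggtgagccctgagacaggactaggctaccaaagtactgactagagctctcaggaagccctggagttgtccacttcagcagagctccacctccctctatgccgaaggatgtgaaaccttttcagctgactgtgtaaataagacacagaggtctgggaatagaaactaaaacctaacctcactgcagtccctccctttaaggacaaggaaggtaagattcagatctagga
F630028O10Rik (chrX:96239676-96239975, plus strand): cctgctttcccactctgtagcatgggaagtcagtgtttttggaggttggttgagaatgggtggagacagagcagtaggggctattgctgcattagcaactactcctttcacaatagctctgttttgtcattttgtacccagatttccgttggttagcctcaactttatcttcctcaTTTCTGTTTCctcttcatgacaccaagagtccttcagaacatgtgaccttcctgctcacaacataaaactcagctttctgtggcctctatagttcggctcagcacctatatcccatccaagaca
C920009B18Rik (chr10:22306532-22306831, plus strand): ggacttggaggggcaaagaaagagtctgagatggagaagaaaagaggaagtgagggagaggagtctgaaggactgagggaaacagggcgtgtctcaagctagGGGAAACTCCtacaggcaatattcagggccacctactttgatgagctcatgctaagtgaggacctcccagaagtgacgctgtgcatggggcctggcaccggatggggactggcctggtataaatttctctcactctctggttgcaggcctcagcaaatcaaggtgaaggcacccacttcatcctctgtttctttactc

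The ISRE core stood at -91 and -46 from the start of Gm12250, at -75 in Gm12185 and at -74 in F630028O10Rik, and these letters were not in the Gm5431 window. Promoter windows were in the table for 91 of the 116 genes, and 7 of their 108 windows held the core, or 6.48%, against 3.44% of all 32851 windows in the table. The core was in 3 of 38 windows (7.9%) of genes lower after R848 than after IFN-α and in 2 of 21 (9.52%) of those higher. For genes not called between R848 and IFN-α it was in 2 of 49 (4.08%). Other matches were at -163 in Gm1966 and in 0610012G03Rik, B630005N14Rik and Gm4944. A κB motif was in 8 of the 108 windows, or 7.41%, against 8.46% of all windows, and the AP-1 core TGANTCA was in 3 of them, or 2.78%, against 7.81%. Split into genes lower, higher and not called as above, a κB motif was in 1 of 38 (2.63%), 2 of 21 (9.52%) and 5 of 49 windows (10.2%). A match is a string of letters and no binding was measured.

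F630028O10Rik, a long noncoding transcript on the X chromosome, contains the microRNA gene Mir223, a microRNA abundant in myeloid cells, and its mature arms are shown because the host transcript was lower after R848+IFN-α than after either agent alone. The seed, bases 2 to 8, is in capitals, and the mature microRNAs were not measured here.
mmu-miR-223-5p: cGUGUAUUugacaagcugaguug
mmu-miR-223-3p: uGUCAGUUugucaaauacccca

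The 3 R848+IFN-α libraries held 2795385 to 6005578 gene counts, the 3 R848 libraries 2817772 to 3298567 and the 3 IFN-α libraries 2505941 to 2852960, and replicate 3 of R848+IFN-α was the deepest. Rn45s, a precursor ribosomal RNA gene, took 13.3% to 26.1% of the gene counts of a library although the RNA had been depleted of ribosomal RNA. Levels below are CPM scaled with TMM factors, which correct for differences in composition between libraries. Against plain library totals, TMM moved the median of all genes, and without it the R848+IFN-α minus R848 differences were lower by 0.39 and the R848+IFN-α minus IFN-α differences lower by 0.31 on the log2 scale. In a chi-square over genes, replicate 1 differed from replicates 2 and 3 of each group by 7.03 to 12.1 per degree of freedom. Replicates 2 and 3 differed by 1.94 to 2.98. Replicate 1 also had the lowest Rn45s share of its group after R848+IFN-α and the highest after R848 and after IFN-α. The part of Rn45s in the chi-square was not tested. By correlation, replicate 1 did not stand apart after R848+IFN-α (0.9781 and 0.9825 with replicates 2 and 3, against 0.9821 between them). Its correlations were lower after R848 (0.9704 and 0.967, against 0.9801) and slightly lower after IFN-α (0.9767 and 0.976, against 0.9789). The microglial label was checked with 15 markers, none at 0 in any group, whose summed level was 4450 to 4997 CPM after R848+IFN-α, 3920 to 4442 CPM after R848 and 6178 to 6567 CPM after IFN-α. All 11 astrocyte markers were also present, at a sum of 2385 to 3430 CPM after R848+IFN-α, 1453 to 1708 CPM after R848 and 1159 to 1466 CPM after IFN-α. Of the 15 microglial markers, 6 were higher and 4 lower after R848+IFN-α than after R848, and 1 was higher and 10 lower than after IFN-α. Of the 10 astrocyte markers tested, 9 were higher and 0 lower after R848+IFN-α than after R848, and 5 were higher and 0 lower than after IFN-α. The 9 endothelial markers, of which 2 were at 0 after R848+IFN-α, 1 after R848 and 2 after IFN-α, summed to 39.5 to 55.6 CPM after R848+IFN-α, 17.3 to 21 CPM after R848 and 51.0 to 66.3 CPM after IFN-α. Of the 3 endothelial markers tested, 3 were higher after R848+IFN-α than after R848, and 1 was higher and 1 lower than after IFN-α. Oligodendrocyte lineage markers summed to 557 to 603 CPM after R848+IFN-α, 496 to 528 CPM after R848 and 639.5 to 753 CPM after IFN-α. Neuronal markers summed to 167 to 187, 141 to 161 and 146 to 179 CPM in the same order of groups. Those of fibroblasts and pericytes summed to 146 to 247, 134 to 177 and 106 to 142 CPM. Markers of other leukocytes summed to 8.61 to 9.46 CPM after R848+IFN-α, 11.5 to 14.5 CPM after R848 and 5.70 to 6.17 CPM after IFN-α. Their part in the results was not tested. In such bulk preparations fewer cells of a type and less RNA per cell cannot be told apart, and the labels do not say that replicates were separate cultures, so the spread behind every p-value may be technical.

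Together the 116 genes held 0.578 ± 0.0425% of gene counts after R848+IFN-α, 0.543 ± 0.0461% after R848 and 0.680 ± 0.0652% after IFN-α (SD, n = 3 each). In CPM of library totals without TMM factors, as in the choice of the genes, 61 reached 20 CPM in all 3 groups, 30 in 2 groups and 25 in 1 group. Of those 25, 16 reached it with R848 alone and 9 with IFN-α alone, and none did so with R848+IFN-α alone. With TMM factors, the group with the highest mean level was R848+IFN-α for 37 genes, R848 for 42 and IFN-α for 37. The lowest was R848+IFN-α for 43, R848 for 47 and IFN-α for 26.

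All 116 genes passed the filter on low counts. With edgeR's quasi-likelihood test and a Benjamini-Hochberg adjusted p under 0.05 over 11002 genes, 77 of the 116 differed among the 3 groups, or 66.4%, against 50.3% of all genes tested and 64.7% of the 6350 other genes that reached the same level. Between R848+IFN-α and R848, 38 (32.8%) were higher and 26 (22.4%) lower after R848+IFN-α. The shares were 19.2% and 16.7% of all genes tested, and 26.2% and 20.7% of the other genes at that level. Without TMM factors the split of the 116 was 29 higher and 56 lower, and with upper-quartile factors 36 and 42. Without replicate 3 of R848+IFN-α it was 37 higher and 17 lower, and without replicate 1 of each group 41 and 29. Between R848+IFN-α and IFN-α, 22 were higher and 23 lower, against 18.5% and 14.7% of all genes, and without TMM factors 13 and 45. Between R848 and IFN-α, 23 were higher and 39 lower, against 18.4% and 19% of all genes. Without replicate 1 of each group these counts were 21 and 24, and 25 and 40. Among the 61 genes above the threshold in every group, the calls were 21 higher and 10 lower, 11 higher and 10 lower, and 10 higher and 19 lower in those comparisons. The most frequent pattern with a call, in 18 genes, was a level higher after R848+IFN-α than after R848, lower after R848 than after IFN-α, and not called between R848+IFN-α and IFN-α. The opposite pattern, lower after R848+IFN-α than after R848 and higher after R848 than after IFN-α, had 10 genes. No pair of groups was called for 36 genes, the largest group. The shares of all genes tested with these patterns were not counted. Calls of at least 2-fold numbered 23 higher and 4 lower after R848+IFN-α than after R848 (8.87% and 3.70% of all genes), 9 and 5 between R848+IFN-α and IFN-α (6.95% and 4.38%), and 8 and 23 between R848 and IFN-α (6.91% and 9.60%).

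**Figure D1:**
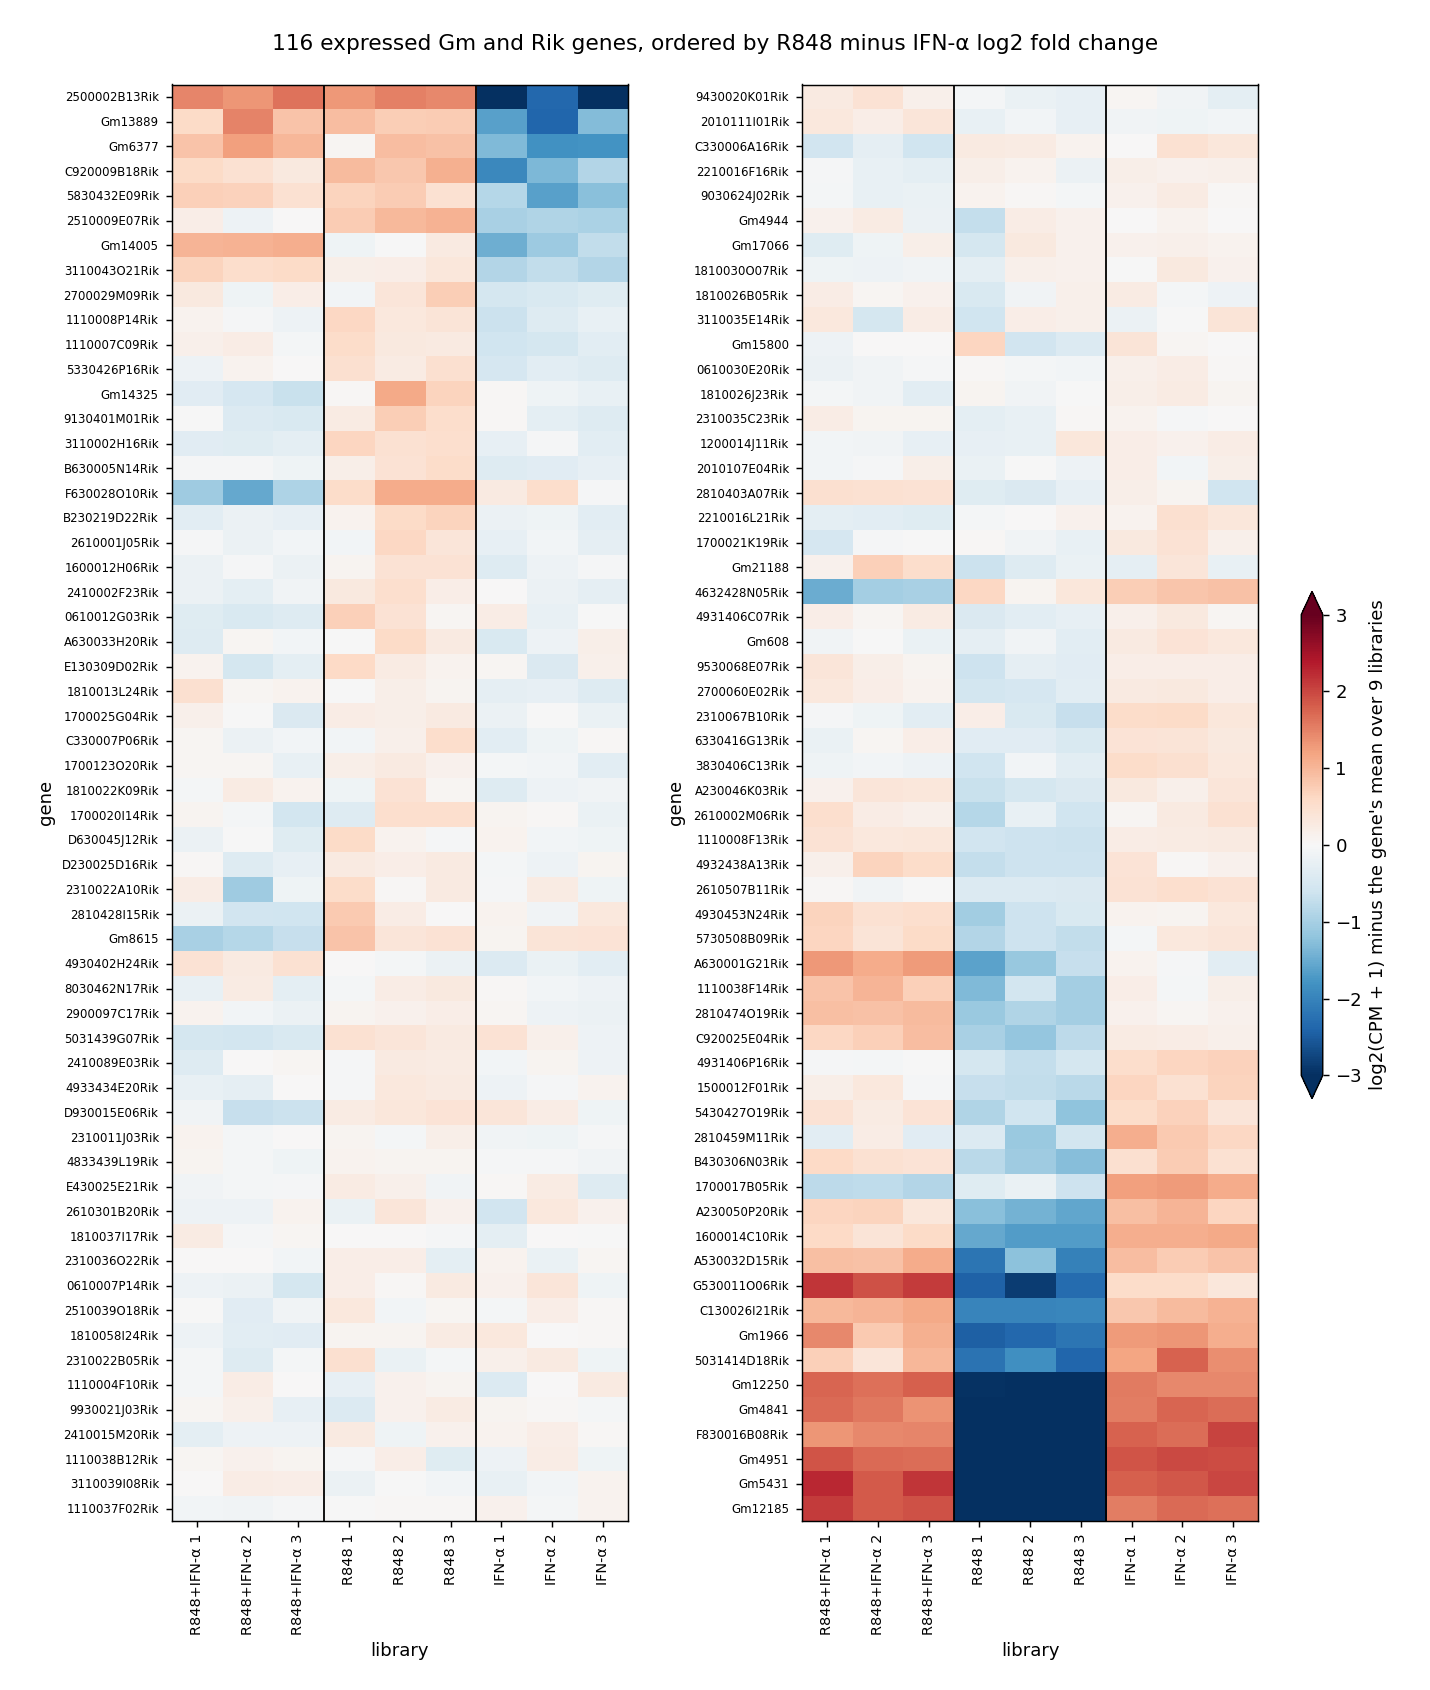
Heat map of the 116 genes (rows, in 2 panels) in the 9 libraries (columns, R848+IFN-α, R848 and IFN-α from left to right); colour is log2(CPM + 1) minus the gene's mean over the 9 libraries, and rows run from the largest to the smallest R848 minus IFN-α difference. The 6 GTPase rows at the bottom right are dark blue in all 3 R848 libraries, and 2500002B13Rik at the top left is dark blue in the IFN-α libraries.

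**Figure D2:**
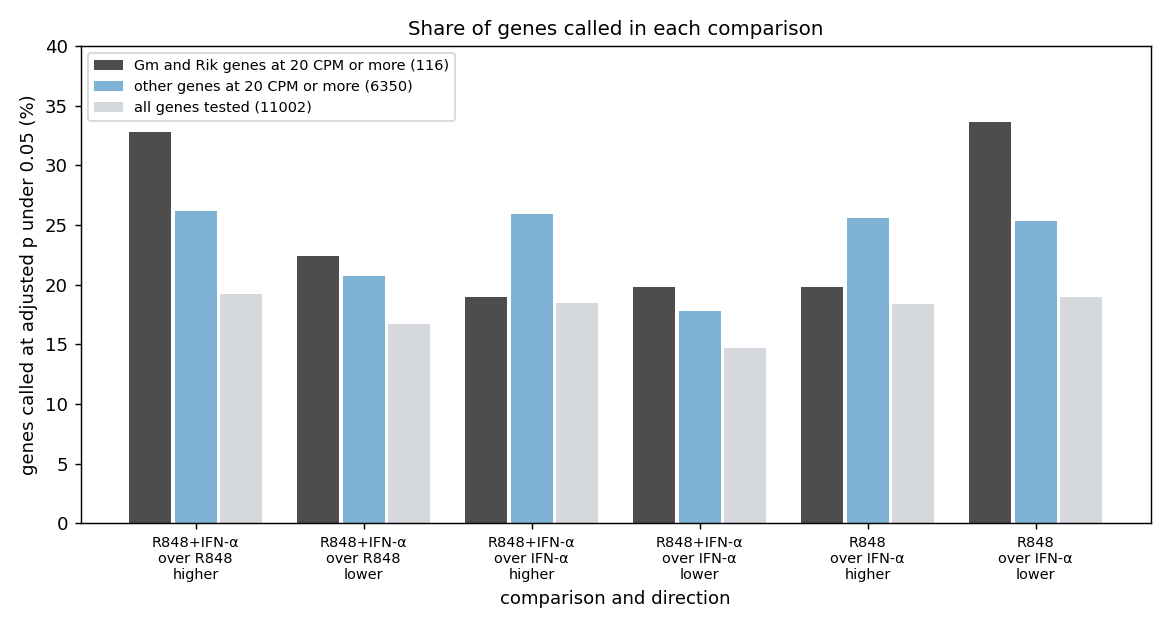
Percent of genes called (vertical axis) by direction in each comparison (horizontal axis) for the 116 Gm and Rik genes, for other genes at 20 CPM or more and for all genes tested. The 2 tallest dark bars, 32.8% higher after R848+IFN-α than after R848 and 33.6% lower after R848 than after IFN-α, stand beside 26.2% and 25.3% of other genes at that level.

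The 6 immunity-related GTPases, of which the Ifgga genes lie on chromosome 18, differed most. All 6 were higher after R848+IFN-α than after R848 alone and all 6 were lower after R848 than after IFN-α, with log2 differences from 5.33 to 7.40 and from -7.08 to -5.08. Their median difference between R848+IFN-α and R848 was 5.59, against -0.03 over all genes. Gm5431 was at 361, 269 and 333 CPM in the R848+IFN-α libraries, 3.46, 3.78 and 4.13 CPM in the R848 libraries and 261, 271 and 299 CPM in the IFN-α libraries. The groups with IFN-α overlapped each other, and the R848 libraries lay far below both. The mean after R848+IFN-α was 84.2-fold that after R848 (log2 difference 6.40 ± 0.16, SE, edgeR quasi-likelihood test, adjusted p = 5.3e-24). Against IFN-α alone the log2 difference was 0.22 ± 0.10 (adjusted p = 0.096 by the same test).

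Gm4951 had 227, 201 and 197 CPM in the R848+IFN-α libraries, 4.9, 3.78 and 2.95 CPM in the R848 libraries and 228, 244 and 241 CPM in the IFN-α libraries. All R848 libraries were below 5 CPM, and the R848+IFN-α and IFN-α libraries did not overlap. IFN-α alone was higher, but the R848+IFN-α minus IFN-α difference of -0.19 ± 0.09 on the log2 scale missed the threshold (edgeR quasi-likelihood test, adjusted p = 0.13). Without TMM factors it was -0.50 and with upper-quartile factors -0.28, and both were called. Irgb10, listed as Gm12250, acts in mouse macrophages on the membranes of intracellular bacteria. It had 114, 108 and 118 CPM in the R848+IFN-α libraries, 3.46, 2.52 and 2.36 CPM in the R848 libraries and 100.2, 92.6 and 93.4 CPM in the IFN-α libraries. Its level after R848+IFN-α was 40.3-fold that after R848 (log2 difference 5.33 ± 0.17, SE, adjusted p = 2.2e-21, edgeR quasi-likelihood test).

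Gm12185 was at 63.2, 53.3 and 55.4 CPM in the R848+IFN-α libraries, 0.576, 0 and 0.295 CPM in the R848 libraries and 42.4, 47.9 and 46.2 CPM in the IFN-α libraries. The R848 group held 3 counts in all, against 571 after R848+IFN-α and 389 after IFN-α. The ratio of R848+IFN-α to R848 was 191 (95% exact interval from 65.0 to 928), and that of IFN-α to R848 was 153 (from 51.9 to 743), both covering counting error only. In GENCODE a longer transcript of Gm12185 than the RefSeq one shares an exon with Tgtp1 on the same strand, so reads may be shared and its level is uncertain. The family has close copies, and reads that map to several places are set apart in the deposited tables, so the levels of all 6 are uncertain to that extent.

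Gm4841 averaged 65.7 ± 8.15 CPM after R848+IFN-α, 1.5 ± 0.315 CPM after R848 and 71.2 ± 5.56 CPM after IFN-α (SD, n = 3 each). Its R848+IFN-α minus IFN-α difference was -0.13 and not called with TMM factors, and -0.44 and called without them. F830016B08Rik averaged 53.5 ± 2.7 CPM after R848+IFN-α, 1.19 ± 0.267 CPM after R848 and 71.6 ± 9.27 CPM after IFN-α. With all 9 libraries, reverse-strand counts and TMM factors it was the only 1 of the 6 called between R848+IFN-α and IFN-α. Its log2 difference there was -0.42 ± 0.13 (SE, edgeR quasi-likelihood test, adjusted p = 0.011). Without replicate 3 of IFN-α that difference was -0.31 and without replicate 1 of R848+IFN-α -0.38, neither called. Per kilobase of exon in GENCODE, the levels after R848+IFN-α were 89.1 CPM for Gm12250, 83.2 for Gm5431, 78.8 for Gm4951, 23.2 for Gm4841, 16.2 for F830016B08Rik and 10.3 for Gm12185. For Gm12185 that length includes its longer transcript, and the annotation used for counting is not known. After R848 they were 2.18, 0.981, 1.46, 0.528, 0.361 and 0.052 CPM per kilobase in the same order. The list of GTPase genes with names of their own held guanylate-binding proteins (Gbp genes) as well as immunity-related GTPases. Of these, 17 of 18 tested were higher after R848+IFN-α than after R848, where 19.2% of all genes tested were, with a median log2 difference of 4.32. Of the 18, 13 were higher after R848+IFN-α than after IFN-α, where 18.5% of all genes tested were. These were Gbp genes except for Irgm1, Tgtp1, Tgtp2 and Irgq, while Irgm2, Igtp, Iigp1, Gbp7 and Gbp8 were not called. Of the 6 placeholder-named GTPases, none was called higher after R848+IFN-α than after IFN-α with all 9 libraries, reverse-strand counts and TMM factors. Without replicate 1 of R848, Gm12185, Gm12250 and Gm5431 were called higher than after IFN-α, at 0.32, 0.25 and 0.21, and Gm4951 lower, at -0.20. Gm5431 was also called higher without replicate 2 of R848+IFN-α, at 0.33, and Gm12185 with counts of both strands together, at 0.34. The difference between the lists was not tested.

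**Figure D3:**
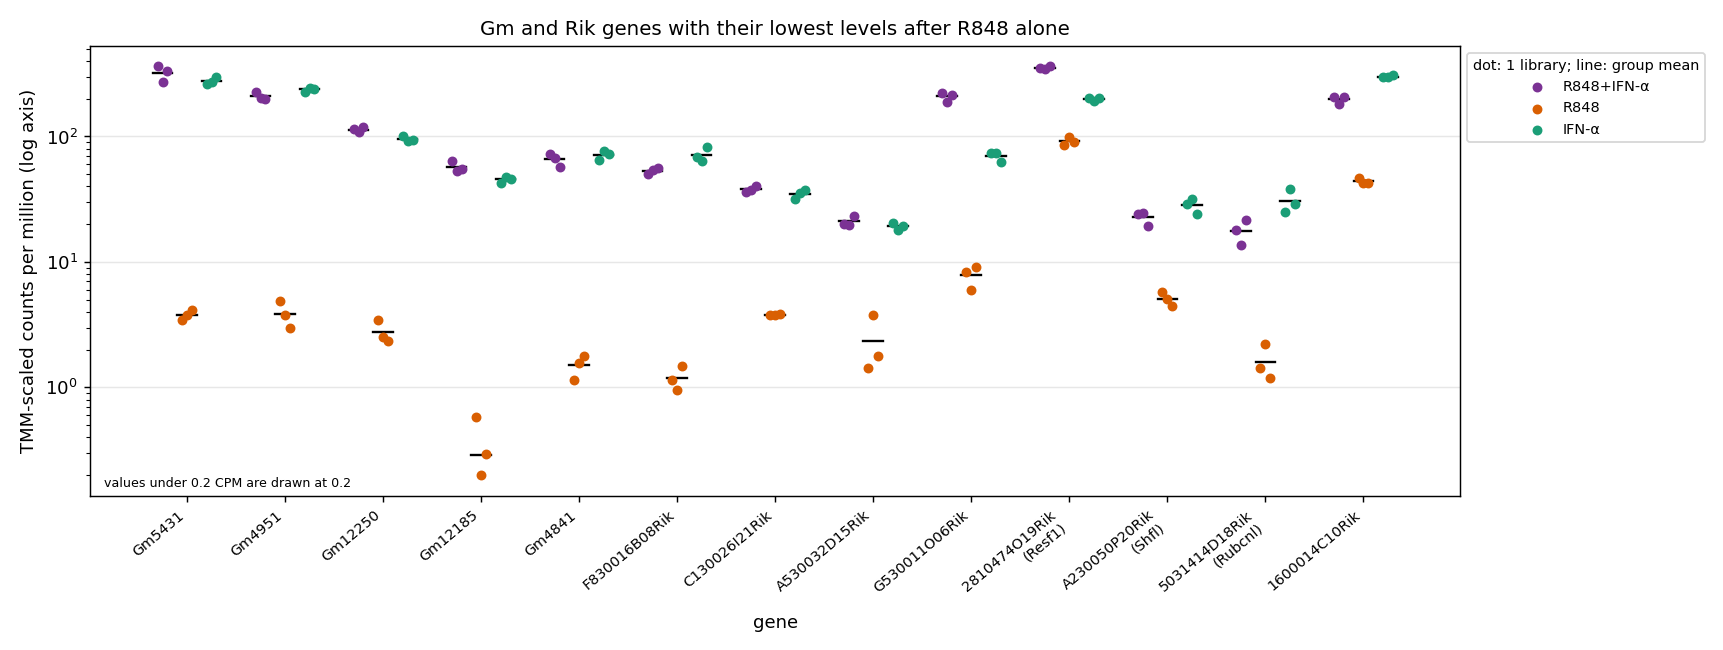
TMM-scaled CPM on a log axis for 13 genes with their lowest level after R848 alone (horizontal axis), in R848+IFN-α, R848 and IFN-α libraries from left to right; each dot is a library and each line a group mean. The R848 dots of the 6 GTPases lie under 5 CPM, and 1 R848 library of Gm12185 at 0 is drawn at 0.2.

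Gm1966, which lies near the very large GTPase gene Gvin1 on chromosome 7, had no function in its RefSeq name. Its levels were 47.6, 30.1 and 37 CPM in the R848+IFN-α libraries, 2.3, 2.52 and 2.95 CPM in the R848 libraries and 42.8, 44 and 37.7 CPM in the IFN-α libraries, with no overlap between R848 and either group given IFN-α (log2 difference of R848+IFN-α minus R848 3.87 ± 0.24, SE, adjusted p = 2.4e-14, edgeR quasi-likelihood test).

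On chromosome 1, 3 of the genes lay around Sp110, Sp140 and Sp100, which encode interferon-inducible nuclear body proteins. C130026I21Rik (chr1:85241286-85282883 on the minus strand) was at 36.1, 37.4 and 40.6 CPM in the R848+IFN-α libraries, 3.74, 3.78 and 3.83 CPM in the R848 libraries and 32, 35.3 and 37.7 CPM in the IFN-α libraries. A530032D15Rik was at 20.1, 19.8 and 23.2 CPM in the R848+IFN-α libraries, 1.44, 3.78 and 1.77 CPM in the R848 libraries and 20.4, 18 and 19.3 CPM in the IFN-α libraries. In both the R848 libraries lay below every other library, by log2 differences of -3.20 ± 0.21 and -3.05 ± 0.28 from IFN-α, and neither was called between R848+IFN-α and IFN-α. A630001G21Rik, 7085 bases from Sp100, lay beyond the other end of that cluster. It had 52, 45.6 and 51 CPM in the R848+IFN-α libraries, 6.05, 8.82 and 12.4 CPM in the R848 libraries and 22.4, 20.2 and 16.5 CPM in the IFN-α libraries, with no overlap among the 3 groups. It was higher after R848+IFN-α than after either agent alone (log2 differences 2.45 ± 0.19 from R848 and 1.35 ± 0.17 from IFN-α, SE, adjusted p = 8.3e-07 for both together, edgeR quasi-likelihood test). Sp110, Sp140 and Sp100 themselves were 3 of 3 higher after R848+IFN-α than after R848 and 0 of 3 were called against IFN-α. The exons of C130026I21Rik overlap Gm29284 on the same strand, which makes its count uncertain.

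Of the genes higher after R848+IFN-α than after both single agents, there were 10, or 8.62% of 116, against 7.33% of all genes tested and 11.2% of other genes at that level. G530011O06Rik, a long noncoding RNA antisense to Mid1 on the X chromosome, had the largest such difference. Its levels were 222, 190.0 and 214 CPM in the R848+IFN-α libraries, 8.35, 5.98 and 9.14 CPM in the R848 libraries and 73.2, 73.5 and 62.7 CPM in the IFN-α libraries, and no group overlapped another. It was 26.5-fold higher after R848+IFN-α than after R848 and 3.0-fold higher than after IFN-α (adjusted p = 2.2e-12 for both together, edgeR quasi-likelihood test). Mid1 was higher in both comparisons too, with log2 differences of 3.32 ± 0.17 from R848 and 0.94 ± 0.14 from IFN-α (SE). The kit kept the strand, and 0.821% of the counts on both strands of G530011O06Rik were on the forward strand. RefSeq gives this name a second promoter window, on Y, and reads of the copies cannot be told apart.

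Resf1, listed as 2810474O19Rik, encodes a factor that silences endogenous retroviruses. It had 351, 343 and 362 CPM in the R848+IFN-α libraries, 85, 98.2 and 90.8 CPM in the R848 libraries and 203, 192 and 203 CPM in the IFN-α libraries, with no overlap among groups, a log2 difference of 1.95 ± 0.09 from R848 and 0.82 ± 0.09 from IFN-α. Morrbid, listed as Gm14005, is a long noncoding RNA known in mouse myeloid cells for restraining the pro-apoptotic gene Bcl2l11, which lies 136116 bases away. It had 45.7, 46.4 and 48 CPM in the R848+IFN-α libraries, 19.9, 21.7 and 26.5 CPM in the R848 libraries and 7.32, 9.73 and 12.7 CPM in the IFN-α libraries, again with no overlap. Its log2 differences were 1.04 ± 0.16 from R848 and 2.22 ± 0.18 from IFN-α (SE, adjusted p = 1.2e-05 for both together, edgeR quasi-likelihood test), and those of Bcl2l11 were 0.10 ± 0.15, not called, and 0.47 ± 0.16, called. An exon of Gm14005 overlaps Gm14012 on the same strand.

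The other 6 genes above both single agents were 1110038F14Rik, C920025E04Rik, 2810403A07Rik, 4930402H24Rik, 2010111I01Rik and 3110043O21Rik. 1110038F14Rik averaged 43.3 ± 4.76 CPM after R848+IFN-α, 11.7 ± 3.46 CPM after R848 and 25.2 ± 2.45 CPM after IFN-α. C920025E04Rik (H2-T-ps, of the MHC) averaged 64.2 ± 6.84 CPM after R848+IFN-α, 18.9 ± 2.58 CPM after R848 and 43.8 ± 1.56 CPM after IFN-α, and its exons overlap Gm7030 on the same strand. 2810403A07Rik (Khdc4, a splicing factor) averaged 49.7 ± 0.716 CPM after R848+IFN-α, 28.2 ± 1.82 CPM after R848 and 34.2 ± 9.4 CPM after IFN-α. It was lowest in IFN-α replicate 3, and without that library the difference from IFN-α was 0.33 and not called. 4930402H24Rik averaged 120.0 ± 8.3 CPM after R848+IFN-α, 87.5 ± 5.94 CPM after R848 and 74.3 ± 5.52 CPM after IFN-α, and 2010111I01Rik (Aopep, an aminopeptidase) averaged 172 ± 10.2 CPM after R848+IFN-α, 124 ± 7.67 CPM after R848 and 129.6 ± 1.7 CPM after IFN-α. Without TMM factors the difference of 4930402H24Rik from R848 was 0.07 and that of 2010111I01Rik 0.09, and those from IFN-α were 0.10 for 2010111I01Rik, 0.25 for C920025E04Rik and 0.25 for Khdc4, none of them called.

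C9orf72, listed as 3110043O21Rik, acts with Smcr8 in autophagy and lysosome function and is strongly expressed in myeloid cells. It had 199, 178 and 186 CPM in the R848+IFN-α libraries, 141, 143 and 159 CPM in the R848 libraries and 66.7, 74.6 and 67.7 CPM in the IFN-α libraries. All R848+IFN-α libraries were above all R848 libraries, and these were above all IFN-α libraries. The difference from IFN-α was 1.43 ± 0.10 (SE, adjusted p = 1.0e-12, edgeR quasi-likelihood test) and that from R848 was 0.35 ± 0.09 (adjusted p = 0.0041). Without TMM factors the difference from R848 was -0.040 with an adjusted p of 0.82 in edgeR's quasi-likelihood test, so its direction against R848 depended on the scaling.

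Among other antiviral and receptor genes, Shfl, listed as A230050P20Rik, is known in human cells as an interferon-induced inhibitor of ribosomal frameshifting in viruses. It averaged 22.7 ± 2.84 CPM after R848+IFN-α, 5.07 ± 0.67 CPM after R848 and 28.2 ± 3.88 CPM after IFN-α (SD, n = 3 each), a log2 difference of 2.12 ± 0.22 between R848+IFN-α and R848 and of -2.46 ± 0.22 between R848 and IFN-α. B430306N03Rik (Treml6, a TREM-like receptor) averaged 76.5 ± 5.28 CPM after R848+IFN-α, 25.7 ± 4.24 CPM after R848 and 80.4 ± 9.69 CPM after IFN-α. Its nearest named neighbour, Treml2, had log2 differences of 4.40 ± 0.49 between R848+IFN-α and R848 and -4.83 ± 0.47 between R848 and IFN-α. P2ry10b (A630033H20Rik), a G protein-coupled receptor gene, had its highest mean after R848, averaged 20.2 ± 3.28 CPM after R848+IFN-α, 27.6 ± 5.61 CPM after R848 and 20.3 ± 4.78 CPM after IFN-α, and no pair was called. Without replicate 1 of R848 both its R848+IFN-α minus R848 difference, -0.56, and its R848 minus IFN-α difference, 0.54, were called, as was the R848 minus IFN-α difference without replicate 3 of IFN-α, 0.62. 5430427O19Rik averaged 25.4 ± 1.92 CPM after R848+IFN-α, 10.2 ± 2.32 CPM after R848 and 29 ± 3.57 CPM after IFN-α.

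For 6 genes all 3 pairs were called, with R848 lowest, R848+IFN-α between and IFN-α highest. The share of all genes tested with this pattern was not counted. Rubcnl, listed as 5031414D18Rik, promotes autophagosome maturation in human cells. It had 17.8, 13.8 and 21.6 CPM in the R848+IFN-α libraries, 1.44, 2.2 and 1.18 CPM in the R848 libraries and 25.1, 38.2 and 29.1 CPM in the IFN-α libraries, and the 3 groups did not overlap. The R848+IFN-α minus IFN-α difference was -0.75 ± 0.19 (SE, adjusted p = 0.0026, edgeR quasi-likelihood test) and the R848 minus IFN-α difference -4.24 ± 0.29 (adjusted p = 2.8e-13). 1600014C10Rik had 208, 181 and 205 CPM in the R848+IFN-α libraries, 46.7, 42.8 and 42.7 CPM in the R848 libraries and 297, 296 and 307 CPM in the IFN-α libraries, with log2 differences of -0.60 ± 0.09 between R848+IFN-α and IFN-α and -2.77 ± 0.10 between R848 and IFN-α. Its nearest named neighbour, Plekhf1, had the opposite sign between R848 and IFN-α, with a difference of 2.52 ± 0.37 (adjusted p = 1.4e-06, edgeR quasi-likelihood test). Zfas1, listed as 1500012F01Rik, is the host of the small nucleolar RNA Snord12, with which it shares exons. It averaged 41 ± 4.9 CPM after R848+IFN-α, 21.4 ± 0.771 CPM after R848 and 56.1 ± 4.57 CPM after IFN-α, and its difference from IFN-α after R848+IFN-α was -0.36 and not called without replicate 3 of R848+IFN-α. Garre1 (4931406P16Rik) averaged 77.6 ± 1.3 CPM after R848+IFN-α, 52.5 ± 4.01 CPM after R848 and 123 ± 7.75 CPM after IFN-α. 2610507B11Rik (Kiaa0100), at the highest mean CPM of all 116, averaged 429 ± 23.3 CPM after R848+IFN-α, 326 ± 3.94 CPM after R848 and 597 ± 17.1 CPM after IFN-α. Its R848+IFN-α minus R848 difference was 0.40 ± 0.08 (SE) with TMM factors and 0.0082 and not called without them. The sixth was the GTPase F830016B08Rik.

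A smaller set had its lowest level after IFN-α alone, and 8 genes were at least 2-fold higher after R848 than after IFN-α, 6.90% of 116 against 6.91% of all genes. 2500002B13Rik, a long noncoding RNA that starts 103 bases from Sap30, had 58.7, 53.3 and 65.4 CPM in the R848+IFN-α libraries, 52.4, 60.8 and 57.8 CPM in the R848 libraries and 1.54, 3.24 and 1.27 CPM in the IFN-α libraries. The R848+IFN-α and R848 libraries overlapped, and the IFN-α libraries were below 4 CPM. The R848+IFN-α level was 29.4-fold that after IFN-α (log2 difference 4.88 ± 0.24, SE, adjusted p = 9.3e-17, edgeR quasi-likelihood test), and the difference from R848 was 0.07 ± 0.13 (adjusted p = 0.73). Sap30 had log2 differences of 0.96 ± 0.11 between R848+IFN-α and IFN-α and -0.15 ± 0.12 between R848 and IFN-α (adjusted p = 2.6e-08 and 0.34, edgeR quasi-likelihood test).

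Gm13889 had 17.8, 34.4 and 21.8 CPM in the R848+IFN-α libraries, 23, 20.2 and 20.3 CPM in the R848 libraries and 3.08, 1.44 and 4.11 CPM in the IFN-α libraries. Gm6377 had 48.7, 63.6 and 53.6 CPM in the R848+IFN-α libraries, 27.6, 51 and 49.5 CPM in the R848 libraries and 10.0, 6.85 and 6.96 CPM in the IFN-α libraries. In both the IFN-α libraries lay below all others, with log2 differences between R848 and IFN-α of 2.84 ± 0.30 and 2.43 ± 0.23 (SE), while R848+IFN-α and R848 overlapped. Without replicate 2 or 3 of R848, Gm6377 was called higher after R848+IFN-α than after R848, at 0.51 and 0.49. In GENCODE exons of Gm13889 overlap Gm27027, and exons of Gm6377 a transcript of Sh3bgrl longer than the RefSeq one, on the same strand, so both levels are uncertain.

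C920009B18Rik, a long noncoding RNA 17933 bases from H60b, a ligand of an activating receptor of natural killer cells, was at 28.6, 26.2 and 23.2 CPM in the R848+IFN-α libraries, 37.2, 34 and 41 CPM in the R848 libraries and 4.24, 6.85 and 9.81 CPM in the IFN-α libraries. No group overlapped another, and R848 was highest (log2 difference of R848 minus IFN-α 2.39 ± 0.21, SE, adjusted p = 6.4e-11, edgeR quasi-likelihood test). R848+IFN-α was lower than R848, with a difference of -0.54 ± 0.17 (adjusted p = 0.011). Without replicate 3 of R848 that difference was -0.47 and without replicate 3 of R848+IFN-α -0.44, neither called. H60b had a difference of 3.75 ± 0.26 between R848 and IFN-α. The κB motif in its promoter window, printed above, lies at -148.

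2510009E07Rik also had its highest level after R848 alone, at 189, 146 and 165 CPM in the R848+IFN-α libraries, 278, 323 and 337 CPM in the R848 libraries and 83.3, 86.5 and 84.5 CPM in the IFN-α libraries. The groups did not overlap. The log2 difference of R848+IFN-α from R848 was -0.90 ± 0.10 (SE, adjusted p = 1.1e-08, edgeR quasi-likelihood test) and that from IFN-α was 0.98 ± 0.11. 5830432E09Rik, a long noncoding RNA antisense to the phosphatase gene Ptpre, averaged 19.2 ± 1.92 CPM after R848+IFN-α, 19.2 ± 2.18 CPM after R848 and 4.61 ± 1.47 CPM after IFN-α. Of its counts on both strands 34.4% were on the forward strand, at 6.01, 14.1 and 2.59 CPM of the gene totals in the same order of groups. Ptpre differed by 1.66 ± 0.12 between R848+IFN-α and IFN-α and 1.98 ± 0.12 between R848 and IFN-α. The part that reads of Ptpre have in its counts was not tested. The smaller differences of this kind included 1110007C09Rik (Card19, a caspase recruitment domain protein), which averaged 32.7 ± 3.26 CPM after R848+IFN-α, 39.7 ± 4.33 CPM after R848 and 21.4 ± 2.33 CPM after IFN-α, 1810013L24Rik, which averaged 86.8 ± 14.7 CPM after R848+IFN-α, 78 ± 5.29 CPM after R848 and 59.5 ± 3.05 CPM after IFN-α, and 2700029M09Rik (Hpf1, a partner of PARP1), which averaged 15.2 ± 2.42 CPM after R848+IFN-α, 18.3 ± 5.46 CPM after R848 and 9.81 ± 0.601 CPM after IFN-α. With counts of both strands together, Hpf1 and Gm21188 were no longer called between R848+IFN-α and IFN-α. Hpf1 was called there without replicate 2 of R848+IFN-α or any 1 of R848, but without any other single library it was not, at 0.57 to 0.69. The Gm21188 difference was not called without replicate 1 or 3 of IFN-α, 2 of R848 or 2 or 3 of R848+IFN-α, at 0.38 to 0.49. That of 1810013L24Rik between R848 and IFN-α was not called without replicate 3 of IFN-α, at 0.35, or 2 of R848, at 0.34.

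**Figure D4:**
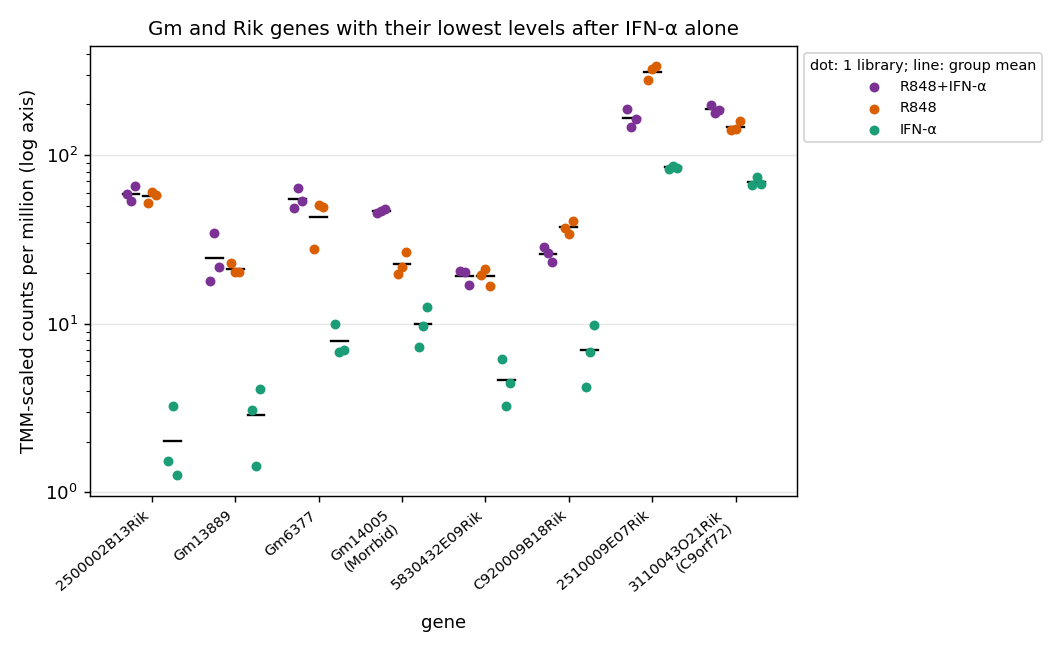
TMM-scaled CPM on a log axis for 8 genes with their lowest level after IFN-α alone, in R848+IFN-α, R848 and IFN-α libraries from left to right; each dot is a library and each line a group mean. The IFN-α dots lie below the other groups in all 8 genes, and for 2510009E07Rik and C920009B18Rik the R848 dots are the highest.

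Lower levels after R848+IFN-α than after both single agents were called for 6 genes, 5.17% of 116, against 2.82% of all genes tested and 3.89% of other genes at that level. Vsir, listed as 4632428N05Rik, encodes VISTA, an inhibitory checkpoint receptor of myeloid cells. It had 11.9, 16.8 and 17.4 CPM in the R848+IFN-α libraries, 54.4, 37.5 and 44.5 CPM in the R848 libraries and 59.7, 63.4 and 65.2 CPM in the IFN-α libraries, with no overlap among groups. The level after R848 was 2.91-fold and that after IFN-α 4.02-fold the level after R848+IFN-α (log2 differences -1.54 ± 0.17 and -2.01 ± 0.16, SE, adjusted p = 3.4e-08 for both together, edgeR quasi-likelihood test). R848 was also below IFN-α, with a difference of -0.46 ± 0.14 (adjusted p = 0.0095 by the same test) that was -0.34 and not called without replicate 2 of R848.

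F630028O10Rik, the host of miR-223, had 6.32, 4.3 and 7.0 CPM in the R848+IFN-α libraries, 21.3, 32.1 and 32.4 CPM in the R848 libraries and 17.3, 21.3 and 13.9 CPM in the IFN-α libraries. All R848+IFN-α libraries were under 8 CPM and below every other library, with log2 differences of -2.21 ± 0.23 from R848 and -1.50 ± 0.25 from IFN-α (SE, adjusted p = 6.8e-05 for both together, edgeR quasi-likelihood test). R848 was higher than IFN-α by 0.71 ± 0.20, and R848 replicate 1 lay close to the highest IFN-α library. The nearest named gene, Vsig4, was not called in those comparisons, with log2 differences of 0.15 ± 0.26 and 0.03 ± 0.26. Gm8615, the transcribed pseudogene, had 6.32, 6.88 and 7.81 CPM in the R848+IFN-α libraries, 24.8, 17.3 and 18.3 CPM in the R848 libraries and 14.3, 17.7 and 18 CPM in the IFN-α libraries. Its R848+IFN-α libraries were all below 8 CPM (log2 differences -1.49 ± 0.22 from R848 and -1.22 ± 0.23 from IFN-α).

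C330006A16Rik averaged 26.5 ± 3.49 CPM after R848+IFN-α, 43.2 ± 2.53 CPM after R848 and 45.5 ± 6.92 CPM after IFN-α. Tmem131l (D930015E06Rik) averaged 10.3 ± 2.65 CPM after R848+IFN-α, 18.6 ± 1.09 CPM after R848 and 16.5 ± 2.88 CPM after IFN-α, and 5031439G07Rik (mKIAA0930) averaged 17.2 ± 0.536 CPM after R848+IFN-α, 32.5 ± 2.25 CPM after R848 and 27.9 ± 5.88 CPM after IFN-α (SD, n = 3 each). Without replicate 2 or 3 of R848+IFN-α or 1 or 2 of IFN-α, the difference of Tmem131l from IFN-α was -0.64 to -0.56 and was not called. 1700017B05Rik had 11.9, 12 and 11 CPM in the R848+IFN-α libraries, 16.4, 18.3 and 13.6 CPM in the R848 libraries and 51.3, 53 and 46.8 CPM in the IFN-α libraries, and both groups given R848 lay far below IFN-α (log2 differences -2.12 ± 0.17 for R848+IFN-α and -1.65 ± 0.16 for R848). Its difference between R848+IFN-α and R848, -0.48 ± 0.19 with an adjusted p of 0.050 in edgeR's quasi-likelihood test, lay at the threshold. It was not called without any 1 library other than replicate 3 of R848, nor with DESeq2. 2810459M11Rik averaged 10.3 ± 2.58 CPM after R848+IFN-α, 6.82 ± 1.88 CPM after R848 and 21.2 ± 3.81 CPM after IFN-α, with a difference of -1.07 ± 0.22 between R848+IFN-α and IFN-α, and 2210016L21Rik averaged 12 ± 0.23 CPM after R848+IFN-α, 15.6 ± 1.07 CPM after R848 and 19.3 ± 2.54 CPM after IFN-α.

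**Figure D5:**
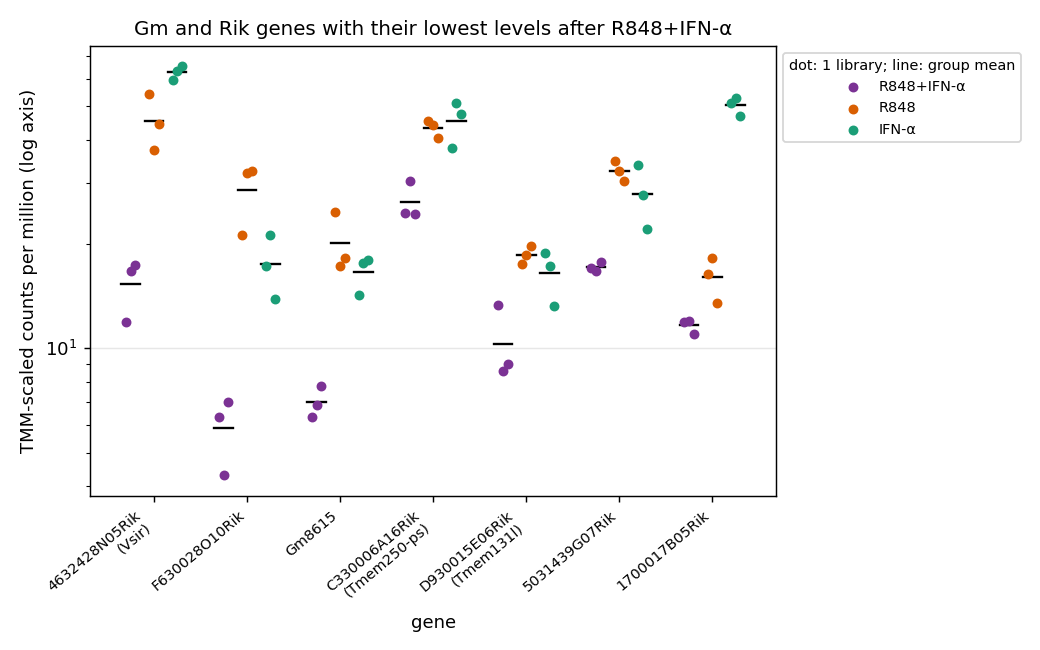
TMM-scaled CPM on a log axis for 7 genes with their lowest level after R848+IFN-α, in R848+IFN-α, R848 and IFN-α libraries from left to right; each dot is a library and each line a group mean. The R848+IFN-α dots lie below all others for Vsir, F630028O10Rik, Gm8615, C330006A16Rik and 5031439G07Rik, and for 1700017B05Rik they lie close to R848.

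Genes lower after R848+IFN-α than after R848, but not called against IFN-α, included Gm14325, which had 12.6, 11.2 and 10.0 CPM in the R848+IFN-α libraries, 16.7, 37.2 and 26.8 CPM in the R848 libraries and 17, 14.8 and 13.9 CPM in the IFN-α libraries. The R848 libraries spread widely, and without replicate 2 of R848 its R848 minus IFN-α difference was 0.52 and not called, against 0.82 ± 0.22 with it. Rmc1 (3110002H16Rik), a subunit of the exchange factor that activates Rab7 on late endosomes, had 29, 28.8 and 30.4 CPM in the R848+IFN-α libraries, 58.5, 51.6 and 53.1 CPM in the R848 libraries and 31.2, 36 and 29.8 CPM in the IFN-α libraries, and the R848 libraries were above all others. The genes of this pattern with smaller differences included B230219D22Rik, which averaged 77.5 ± 3.81 CPM after R848+IFN-α, 127 ± 25.1 CPM after R848 and 79.4 ± 5.54 CPM after IFN-α, 9130401M01Rik, which averaged 13.4 ± 2.56 CPM after R848+IFN-α, 23.9 ± 4.23 CPM after R848 and 14.2 ± 2.43 CPM after IFN-α, and 1110008P14Rik, which averaged 21.3 ± 2.01 CPM after R848+IFN-α, 29.8 ± 3.69 CPM after R848 and 16 ± 2.44 CPM after IFN-α. B630005N14Rik averaged 47.9 ± 1.63 CPM after R848+IFN-α, 66.1 ± 8.84 CPM after R848 and 39.7 ± 1.85 CPM after IFN-α, and 2410002F23Rik averaged 17.3 ± 1.27 CPM after R848+IFN-α, 25.3 ± 2.76 CPM after R848 and 17.8 ± 2.0 CPM after IFN-α. The R848+IFN-α minus R848 difference of 1110008P14Rik was -0.42 without replicate 3 of R848+IFN-α and -0.39 without replicate 1 of R848, neither called. That of 2410002F23Rik was -0.48 without replicate 2 of R848+IFN-α and -0.44 without replicate 2 of R848, neither called, and its R848 minus IFN-α difference was not called without replicate 2 of R848 or 2 or 3 of IFN-α, at 0.42 to 0.49.

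Of 9 genes whose products act on endosomes or in autophagy, 4 were higher and 1 lower after R848+IFN-α than after R848, where 19.2% and 16.7% of all genes tested were. One of the 4, 3110043O21Rik, had the opposite sign without TMM factors (-0.040, not called). After R848+IFN-α against IFN-α 1 was higher and 3 lower, against 18.5% and 14.7% of all genes. The set was put together after its values were seen. Washc4 (A230046K03Rik), a subunit of the WASH complex that builds actin on endosomes, had 129, 153 and 149.9 CPM in the R848+IFN-α libraries, 74, 82.2 and 87 CPM in the R848 libraries and 145, 133 and 153 CPM in the IFN-α libraries, and the R848 libraries lay below both other groups (log2 difference of R848 minus IFN-α -0.82 ± 0.11, SE). Washc5 (E430025E21Rik), of the same complex, averaged 18 ± 0.474 CPM after R848+IFN-α, 20.3 ± 2.62 CPM after R848 and 18.7 ± 4.26 CPM after IFN-α, with a difference of 0.13 ± 0.19 that was not called. 2610002M06Rik (Chmp1b2, of the ESCRT-III membrane-cutting family) averaged 44.5 ± 6.28 CPM after R848+IFN-α, 24.6 ± 5.75 CPM after R848 and 43.8 ± 6.12 CPM after IFN-α. Rubcn (1700021K19Rik), the autophagy regulator Rubicon, averaged 36.8 ± 6.77 CPM after R848+IFN-α, 39 ± 3.78 CPM after R848 and 51.2 ± 4.86 CPM after IFN-α. Its difference between R848 and IFN-α, -0.39 ± 0.14, was called with all 9 libraries. It was not called without replicate 1 or 2 of IFN-α or 2 or 3 of R848, at -0.39 to -0.32. Its difference between R848+IFN-α and IFN-α was not called without replicate 2 of IFN-α, at -0.39, or 1 of R848+IFN-α, at -0.32. Vps35l (9030624J02Rik), of an endosomal recycling complex, averaged 72.1 ± 4.32 CPM after R848+IFN-α, 82.3 ± 4.44 CPM after R848 and 89.2 ± 6.63 CPM after IFN-α. Its R848+IFN-α minus IFN-α difference, -0.31 ± 0.11, was not called without replicate 2 or 3 of R848+IFN-α or 1 or 2 of IFN-α, at -0.31 to -0.25. Relch (2310035C23Rik) averaged 56.8 ± 3.61 CPM after R848+IFN-α, 46.4 ± 6.13 CPM after R848 and 53 ± 2.37 CPM after IFN-α with no pair called, although without replicate 3 of R848 it was called higher after R848+IFN-α than after R848, at 0.40.

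Among 5 genes for RNA binding and processing, a set also put together after its values were seen, 2 were higher after R848+IFN-α than after R848, namely Khdc4 and Rtraf, where 19.2% of all genes tested were higher. Rtraf (2700060E02Rik), a subunit of the tRNA ligase complex, had 105, 97.1 and 90.9 CPM in the R848+IFN-α libraries, 57.9, 59.5 and 67.2 CPM in the R848 libraries and 102, 104 and 97.2 CPM in the IFN-α libraries, with R848 below both other groups. Virma (1110037F02Rik), of the complex that places N6-methyladenosine on RNA, averaged 45.8 ± 1.17 CPM after R848+IFN-α, 48.9 ± 0.72 CPM after R848 and 50.4 ± 3.42 CPM after IFN-α, and no pair was called. Ncbp3 (1200014J11Rik), a cap-binding protein, averaged 30.5 ± 2.02 CPM after R848+IFN-α, 33.3 ± 8.18 CPM after R848 and 38.4 ± 1.47 CPM after IFN-α. Trir (2310036O22Rik) averaged 45.2 ± 1.87 CPM after R848+IFN-α, 47.7 ± 8.87 CPM after R848 and 45.7 ± 5.0 CPM after IFN-α. Of 4 mitochondrial genes, 1810058I24Rik (Stmp1) was lower after R848+IFN-α than after both other groups, with log2 differences of -0.42 ± 0.13 from R848 and -0.41 ± 0.14 from IFN-α, and averaged 38.1 ± 3.04 CPM after R848+IFN-α, 51 ± 3.34 CPM after R848 and 50.5 ± 6.05 CPM after IFN-α. Without replicate 3 of R848+IFN-α neither difference, -0.38 and -0.36, was called. The first was also not called without replicate 3 of R848, at -0.37, and the second without replicate 2 of R848+IFN-α, at -0.38, or 1 of IFN-α, at -0.31. Rex1bd (2810428I15Rik) and Erg28 (0610007P14Rik) were likewise called lower than each agent alone. For these 3 genes the adjusted p for both differences together did not pass. Rex1bd averaged 13.8 ± 2.54 CPM after R848+IFN-α, 25.1 ± 7.64 CPM after R848 and 20.7 ± 3.21 CPM after IFN-α. Its difference from IFN-α was not called without replicate 2 or 3 of R848+IFN-α or 1 or 3 of IFN-α, at -0.62 to -0.48. No pair was called for Timm29 (1810026J23Rik), Micos13 (2410015M20Rik) or Atp5mpl (2010107E04Rik), whose group means ran from 22.1 to 29.6 CPM, although without replicate 1 of R848 Timm29 was called lower after R848+IFN-α than after IFN-α, at -0.37.

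Among the remaining genes with high levels, 9530068E07Rik had 267, 235 and 220.3 CPM in the R848+IFN-α libraries, 134, 172 and 163 CPM in the R848 libraries and 237, 237 and 238 CPM in the IFN-α libraries, so that the R848 libraries were lowest (log2 difference of R848 minus IFN-α -0.60 ± 0.10, SE). Rab5if (1110008F13Rik) had 188, 174 and 177 CPM in the R848+IFN-α libraries, 94.2, 91 and 89.6 CPM in the R848 libraries and 163, 167 and 170.0 CPM in the IFN-α libraries, and R848 was lower than R848+IFN-α by a factor of 1.96. 4833439L19Rik (P33monox) averaged 137 ± 10.1 CPM after R848+IFN-α, 149 ± 1.63 CPM after R848 and 135 ± 3.72 CPM after IFN-α, with no pair called. 4932438A13Rik (Kiaa1109), a very large lipid-transfer protein, averaged 109 ± 20.0 CPM after R848+IFN-α, 49.4 ± 1.69 CPM after R848 and 90.1 ± 12.5 CPM after IFN-α. 4930453N24Rik averaged 68.1 ± 5.84 CPM after R848+IFN-α, 28.5 ± 5.71 CPM after R848 and 52.2 ± 4.67 CPM after IFN-α and 5730508B09Rik 112 ± 10.7 CPM after R848+IFN-α, 45.5 ± 4.28 CPM after R848 and 89.9 ± 13.9 CPM after IFN-α, each called in all 3 pairs with R848 lowest and R848+IFN-α highest, although R848+IFN-α did not pass against both single agents together (adjusted p = 0.080 and 0.094, edgeR quasi-likelihood test). Their R848+IFN-α minus IFN-α calls did not hold without replicate 1 or 3 of R848+IFN-α or 1 or 2 of IFN-α, at 0.31 to 0.41 for 4930453N24Rik and 0.20 to 0.36 for 5730508B09Rik, nor with DESeq2 or upper-quartile factors, and without TMM factors the values were 0.07 and -0.0031. 2310067B10Rik averaged 23.7 ± 2.52 CPM after R848+IFN-α, 21.8 ± 7.72 CPM after R848 and 37.6 ± 3.25 CPM after IFN-α, 3830406C13Rik 21.2 ± 0.654 CPM after R848+IFN-α, 18.5 ± 3.53 CPM after R848 and 32.1 ± 2.67 CPM after IFN-α and Gm608 44.1 ± 3.03 CPM after R848+IFN-α, 40.2 ± 3.38 CPM after R848 and 59.8 ± 2.84 CPM after IFN-α, and in these the groups given R848 were both lower than IFN-α. Without replicate 3 of R848+IFN-α the difference of Gm608 between R848+IFN-α and IFN-α was -0.39 and not called.

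Among the 77 genes called in the 3-group test, the 10 with the smallest difference between their highest and lowest group were 1810058I24Rik, D230025D16Rik, Jcad (9430020K01Rik), Erg28 (0610007P14Rik, of sterol synthesis), Rubcn, Aopep, 1600012H06Rik, 4931406C07Rik, 2610001J05Rik and 1810013L24Rik. D230025D16Rik averaged 27.4 ± 4.47 CPM after R848+IFN-α, 37.4 ± 1.32 CPM after R848 and 30.5 ± 2.58 CPM after IFN-α, Jcad averaged 25.6 ± 2.59 CPM after R848+IFN-α, 18.5 ± 1.46 CPM after R848 and 19.4 ± 2.6 CPM after IFN-α, and Erg28 averaged 21.7 ± 3.07 CPM after R848+IFN-α, 30.1 ± 2.45 CPM after R848 and 29.1 ± 5.09 CPM after IFN-α. 1600012H06Rik averaged 44.7 ± 2.62 CPM after R848+IFN-α, 61.8 ± 8.4 CPM after R848 and 42.9 ± 5.59 CPM after IFN-α, 4931406C07Rik averaged 28 ± 1.99 CPM after R848+IFN-α, 19.4 ± 1.25 CPM after R848 and 27.9 ± 2.54 CPM after IFN-α, and 2610001J05Rik averaged 36.8 ± 1.93 CPM after R848+IFN-α, 49.6 ± 12.2 CPM after R848 and 34.1 ± 2.67 CPM after IFN-α. Several of these calls did not hold when 1 library was left out. The R848+IFN-α minus R848 difference of Erg28 was -0.36 without replicate 3 of R848+IFN-α and -0.45 without replicate 3 of R848, and its difference from IFN-α was not called without replicate 2 or 3 of R848+IFN-α, 2 of R848 or 1 or 2 of IFN-α, at -0.49 to -0.30. For D230025D16Rik that from R848 was -0.37 and -0.41 without replicates 2 and 3 of R848+IFN-α. For Jcad it was 0.38 to 0.45 without replicate 1 or 2 of R848+IFN-α or 2 or 3 of R848, and for 2610001J05Rik -0.45 to -0.24 without any 1 of the R848+IFN-α libraries or 2 or 3 of R848. For 4931406C07Rik it was 0.49 without replicate 3 of R848+IFN-α. Between R848 and IFN-α the difference of 4931406C07Rik was -0.45 without replicate 2 of IFN-α and that of 2610001J05Rik 0.36 without replicate 2 of R848, neither called. At the other end, the 3-group test of edgeR gave the 10 largest adjusted p, from 0.69 to 0.96 for Washc5, Gm17066, Hectd4 (Gm15800), 2610301B20Rik, 1110038B12Rik, Vxn (3110035E14Rik), Zfp994 (Gm4944), Trir, 1110004F10Rik and 9930021J03Rik. The last averaged 24.5 ± 3.68 CPM after R848+IFN-α, 24.8 ± 5.86 CPM after R848 and 24.8 ± 1.25 CPM after IFN-α, and its log2 difference between R848+IFN-α and R848 was -0.05 ± 0.18 (SE). Gm15800 was at 28.8 CPM in R848 replicate 1 and at 11.7 and 13.3 CPM in the other R848 libraries. Without replicate 1 of each group its R848+IFN-α minus R848 difference was 0.56 and was called (edgeR quasi-likelihood test, adjusted p = 0.044), against -0.04 ± 0.25 with all libraries. Its R848 minus IFN-α difference without replicate 1 of R848 alone was -0.70 and was called (adjusted p = 0.0058, by the same test), against -0.16 ± 0.25 with all libraries. 1110038B12Rik shares exons with the small nucleolar RNA gene Snord52, and Gm17066 with Rbm26.

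Of the 13 long noncoding RNAs, 3 were higher and 3 lower after R848+IFN-α than after R848, against 19.2% and 16.7% of all genes tested. Against IFN-α, 5 were higher and 2 lower after R848+IFN-α (18.5% and 14.7% of all genes), and 6 were higher and 2 lower after R848 (18.4% and 19%). Besides those given above, Norad (2900097C17Rik), which binds Pumilio proteins, averaged 83.5 ± 8.57 CPM after R848+IFN-α, 95 ± 4.17 CPM after R848 and 81.1 ± 7.59 CPM after IFN-α, Mir100hg (3110039I08Rik) averaged 38 ± 2.97 CPM after R848+IFN-α, 32.1 ± 1.88 CPM after R848 and 32.8 ± 3.72 CPM after IFN-α, and Oip5os1 (1700020I14Rik), also called Cyrano, averaged 15.3 ± 3.52 CPM after R848+IFN-α, 20.9 ± 6.85 CPM after R848 and 16.9 ± 1.75 CPM after IFN-α, with no pair called in any of them. Without replicate 1 of each group, the R848+IFN-α minus R848 difference was -0.90 for Oip5os1 and -0.29 for Norad, and both were called. That of Oip5os1 was -0.75 without replicate 1 of R848 alone, and its R848 minus IFN-α difference 0.55, both called. Chaserr (1810026B05Rik) averaged 24.5 ± 1.43 CPM after R848+IFN-α, 20.4 ± 4.46 CPM after R848 and 22.6 ± 3.52 CPM after IFN-α, and its exons overlap its neighbour Chd2 on the same strand. Dubr (5330426P16Rik) averaged 16.6 ± 1.6 CPM after R848+IFN-α, 22.6 ± 2.16 CPM after R848 and 12.5 ± 0.894 CPM after IFN-α, and R848 was higher than IFN-α by 0.85 ± 0.18 (SE). Its difference between R848+IFN-α and R848 was not called with counts of both strands together, at -0.42, nor without any 1 of the R848+IFN-α libraries or replicate 1 or 3 of R848, at -0.50 to -0.39.

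A tested, otherwise named nearest gene was found for 86 of the 116. Of the 45 of these genes called between R848+IFN-α and R848, 17 had a neighbour called in the same direction, or 37.8%, and 4 a neighbour called in the other, or 8.89%. For other genes these shares were 28.5% and 12.6%. The corresponding counts were 11 of 33 between R848+IFN-α and IFN-α (33.3%, against 22.2% of other genes) and 15 of 45 between R848 and IFN-α (33.3%, against 30.2%). A neighbour called in the other direction was found for 4 of the 33 (12.1%, against 13.3% of other genes) and 9 of the 45 (20%, against 13.6%). Irgm1, 16002 bases from Gm5431, had log2 differences of 4.30 ± 0.09 between R848+IFN-α and R848 and 0.48 ± 0.08 between R848+IFN-α and IFN-α. Iigp1, 69793 bases from F830016B08Rik, had 6.56 ± 0.16 and 0.10 ± 0.10. It was also the neighbour of Gm4951 and Gm4841 and is counted for each, so the pairs are not independent. Mrpl22, 4263 bases from Gm12250, had 0.23 ± 0.19 and -0.19 ± 0.19 and was not called.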

How the data were processed

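RNA of 9 primary microglia samples, depleted of ribosomal RNA, was sequenced from directional paired-end libraries (101 cycles). The authors deposited 1 table of raw counts per gene and library in the layout of STAR's gene counts, with unstranded, forward and reverse columns. CASAVA 1.8.2, Trimmomatic 0.33, STAR 2.5.1, DESeq2 and the mm10 build are named per the submitters' processing notes, and no source used here names the annotation. The reverse column was used, since the forward column held 1.09% to 1.50% of the counts of both strands in a library. Rows that name no gene were left out. Relative to the total reads of a library these held 39.3% to 44.4% without a feature, 7.22% to 8.51% multimapping and 0.139% to 0.191% ambiguous reads.

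The counts as deposited were fitted for all 9 libraries with edgeR 4.0.16 (R 4.3.3, limma 3.58.1): filterByExpr with a minimum count of 10 and total of 15, TMM factors, quasi-likelihood F tests and Benjamini-Hochberg adjustment over 11002 genes, with calls at 0.05. A gene was beyond both single agents where both differences had 1 sign and the adjusted larger p passed. DESeq2 1.42.0 was an alternative, and the fit was tested on simulated data. Python 3.11.15 was used for summaries.

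Genes described with values were, per comparison, the 8 largest changes each way among called genes, the 10 highest levels, the 10 smallest called and the 10 largest p of the 3-group test, genes beyond both agents, family members, threshold neighbours and genes whose call depended on strand. Nearest otherwise named genes are given for the principal ones. Further genes and the functional groups were chosen after their values were seen. The genes and lists were chosen with earlier results of these data known. Positions, names and sequences are from RefSeq on GRCm38.p6, with GENCODE vM21, whose transcripts can run beyond the RefSeq ones, for exon overlaps and exon lengths.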

Additional observations from a re-analysis of the deposited data

Results flagged for a closer look

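The forward-strand counts, which entered no comparison, stood out for 17 genes with placeholder names. In 16 of them, whose reverse strand did not reach the level that chose the 116 expressed genes, they averaged at least 20 CPM of a library's gene total in at least 1 group. Summed over the 9 libraries the highest was Gm14023, annotated on the strand opposite Il1a, with 29898 forward counts at 1612, 1176 and 2.3 CPM after R848+IFN-α, R848 and IFN-α in that order. 3110062M04Rik, within Tmem140, had 3263 forward counts at 122, 10.7 and 216 CPM in the same order of groups. The other genes of this kind opposite an exon of a named gene were Gm15441 with 1254 counts (opposite Txnip), 4930473A02Rik with 1238 (Ptpra and Mrps26), 1700071M16Rik with 1197 (Pla2g7), 0610039K10Rik with 979 (Serinc3), 4930404N11Rik with 952 (Mfsd12), Gm12992 with 757 (Srsf4), E230013L22Rik with 743 (Rab20), Gm11696 with 470 (Gna13), 4930506C21Rik with 456 (Mpc1) and 9130221H12Rik with 455 (Gsk3a). Gm16907 had 900 forward counts opposite 2010111I01Rik. C230091D08Rik had 1221, Gm19897 964 and Gm10677 752, and their positions overlap Snurf, Sirt2 and Cadm1 in that order. No opposite exon was found for them, but a symbol missing from GENCODE would also give none.

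Of the 116 expressed genes 1 had at least 20% of the counts of both strands in the forward column, 5830432E09Rik, with 219 forward counts opposite Ptpre. Whether the forward counts are reads of the opposite gene was not tested.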

How the results depend on the processing

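With library totals in place of TMM factors, 56 genes were lower after R848+IFN-α than after R848, and between R848+IFN-α and IFN-α 13 were higher and 45 lower. Upper-quartile factors gave 42 lower after R848+IFN-α than after R848 and the DESeq2 test 17. A threshold of 10 CPM chose 182 genes and 40 CPM chose 60, and 20 CPM of totals without the ribosomal RNA gene Rn45s chose 134. Of 6612 values of the 116 genes in the 3 comparisons under all alternatives, 6305 kept their side of the threshold, 166 lost the call and 138 gained it. For 3 others, each called in only 1 of the compared fits, the sign turned. Turns of sign in values called in neither fit were not counted. With library totals the sign turned for 3110043O21Rik between R848+IFN-α and R848 (-0.040) and for 5730508B09Rik between R848+IFN-α and IFN-α (-0.0031). It also turned for Gm15800 between R848+IFN-α and R848 without replicate 1 of each group (0.56), an alternative chosen after seeing the data. The cause was not tested. Library totals also ended the call of a higher level after R848+IFN-α than after R848 for Rtraf (0.27), Garre1 (0.18) and 9530068E07Rik (0.23), and than after IFN-α for Card19 (0.27), 1810013L24Rik (0.24), Hpf1 (0.33) and Gm21188 (0.17). With them Virma (-0.48), P33monox (-0.52), Timm29 (-0.56), Micos13 (-0.70) and Trir (-0.47) were called lower after R848+IFN-α than after R848.

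Leaving out 1 library at a time gave 37 to 40 higher and 17 to 25 lower after R848+IFN-α than after R848, 18 to 26 higher and 16 to 26 lower than after IFN-α, and 19 to 27 higher and 37 to 40 lower after R848 than after IFN-α. Among the 3 groups 72 to 82 were called. Same-numbered libraries had correlations of -0.10 to 0.06 in their deviations from the group means over all genes tested. Those with different numbers had -0.09 to 0.06. A link between same-numbered samples that is limited to some genes was not tested. With the replicate number as a block, the counts were 39 and 27, 22 and 23, and 24 and 39, with 80 called among the 3 groups.

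Genes near 20 CPM rest on few counts in the shallower libraries, which limits what difference can be called.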
